A study of Mus musculus with 10 samples.

Results

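The 85 genes described here encode the proteins of the cytosolic ribosome, as they were measured in microglia of WT and Bhlhe40/41 double knockout (DKO) mice. They were chosen by symbol and by mean level, as protein-coding genes whose symbol starts with Rpl or Rps and a digit, or is Rpsa, Rplp0, Rplp1 or Rplp2, with a mean of at least 50 estimated counts over the 10 libraries. Kinases of the Rps6k family were left out. Of 53697 genes in the files, 93 had such a symbol and 85 passed the minimum, which used the mean over both genotypes and not their difference. All 85 also passed the filter of the test between genotypes, in which 13916 genes were compared. They comprise 46 genes of the large subunit, 31 of the small subunit and 8 second copies or look-alikes, namely Rpl7l1, Rpl22l1, Rpl36al, Rps27l, Rps27rt, Rps19bp1, Rpl10-ps3 and Rps12-ps3. The label holds for the first 77 of these by name, whereas Rps19bp1 encodes a protein that binds RPS19 and is not a subunit.

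Members nearest to the minimum were Rpl12 with a mean of 94.6 counts, Rps12 with 138.9 and Rps19bp1 with 264.5, and just outside it lay Rpl39l with 11.6, Rpl9-ps6 with 1.81 and Rpl9-ps1 with 1.6. The other 5 genes left out were Rpl3l, Rpl36a-ps1, Rpl13a-ps1, Rpl36-ps4 and Rpl10l. Fau and Rack1, which encode subunit proteins under other symbols, are not members and are given separately.

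Microglia are macrophages that live in the brain, and here they came from untreated female mice, sorted in 2 rounds as viable CD45.2+CD11b+ cells without Ly6C, Ly6G, MHCII and CD38, after the olfactory bulb and cerebellum had been discarded. The 5 WT and 5 DKO libraries are each of bulk RNA. Their labels call them biological replicates, and they are named here by the replicate number of these labels. DKO mice lacked both Bhlhe40 and Bhlhe41 (Bhlhe40-/-Bhlhe41-/-), WT mice were C57BL/6J or Rosa26Stop-YFP, and all were kept on the C57BL/6 background. This is how the methods name the WT mice, whereas the paper's results call them littermates of the DKO mice. The methods give ages of at least 2 and 6 months without tying them to libraries, and neither the labels nor the methods say whether 1 library is 1 mouse, so that p-values speak only to how far these libraries differ among themselves, which may be technical in part.

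Total estimated counts were 22483284 to 26109349 per library. Bhlhe40 was at 0.601 ± 0.385 CPM in WT and 0.177 ± 0.136 in DKO (SD, n = 5, two-sided exact permutation p = 0.0476). Bhlhe41 counts were higher in DKO, at 50.9 ± 8.45 CPM against 35.9 ± 6.67 (exact permutation p = 0.0238), while the mean length of its counted transcripts was 2210 ± 362 bases against 6000 ± 96.4 (exact permutation p = 0.00794, the smallest that 5 against 5 can give), so that its count does not by itself check the labels. The 10 microglial markers were all tested and took 8.04% to 8.57% of counts in WT and 7.36% to 8.33% in DKO. Of these 10, 1 (P2ry12) was called lower in DKO, beside 1.85% of all genes tested. Summed markers of some other cell types did not overlap between genotypes. In WT and DKO, respectively, they took 0.00267% to 0.00473% and 0.000982% to 0.00172% of counts for T and NK cells, 0.00441% to 0.00627% and 0.00105% to 0.00182% for endothelium, 0.0237% to 0.0424% and 0.0145% to 0.0206% for astrocytes, and 0.00156% to 0.00205% and 0.00270% to 0.00358% for monocytes. Those of B cells, oligodendrocytes, neurons, border-associated macrophages, neutrophils and red blood cells overlapped, the largest of them being B cells with 0.0437% to 0.0858%. Such a sum follows its most abundant genes, and the genes of a list did not all change alike. Log2 fold changes were above 0 for 1 of 2 genes tested for T and NK cells and 2 of 3 for endothelium. They were above 0 for 2 of 5 for astrocytes and 4 of 5 for monocytes. In each of these lists 1 gene tested did not overlap between genotypes, and likewise 1 of 2 for border-associated macrophages, beside 7.62% of all genes tested. The part of other cell types in the results below was not tested. WT 1, WT 5 and DKO 3 held more mitochondrial RNA (1.54% to 1.74% of counts) than the other 7 libraries (0.985% to 1.16%), and WT 1 and WT 5 also the most ribosomal RNA (0.877% and 1.19%, against 0.341% to 0.568% in the other 8).

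A ribosome joins a small subunit, which reads the mRNA, and a large subunit, which forms the peptide bond and passes the new chain through a tunnel. Cells make its proteins in matched amounts, and many of their mRNAs begin at a cytosine that is followed by a run of pyrimidines, the 5′ terminal oligopyrimidine (TOP) start, through which the kinase complex mTORC1 regulates their translation. Levels of mRNA therefore do not give the rate at which the proteins are made. BHLHE40 and BHLHE41 are transcription factors that bind the E-box CACGTG, and the comparison of genotypes asks how transcripts differ in microglia without them.

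Starts of annotated transcripts (GENCODE M21, GRCm38) show the TOP sequence, and for each gene the transcript with the longest run of pyrimidines from a cytosine was taken. Such a run of at least 5 bases was found in 22 of the 77 subunit genes (28.6%), all of which have an annotated transcript, in 10 of 46 large subunit genes (21.7%) and in 12 of 31 small subunit genes (38.7%), beside 5.94% of 9649 other protein-coding genes with the same minimum mean count. The annotated start need not be the start used in microglia. The 2 longest runs, the pair Rps27 and Rps27rt, and Rpl4 and Rpl29, which stand out below, are shown as their first 20 bases, with the pyrimidine run in capitals.
Rps24: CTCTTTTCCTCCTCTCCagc
Rpl32: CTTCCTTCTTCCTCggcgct
Rps27: CCTTTCCggcggtgacgacc
Rps27rt: CTTTCCggcggtgacgacct
Rpl4: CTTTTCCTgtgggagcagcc
Rpl29: CTCTTCCggtctccggcgct
Rpl4 and Rpl29, whose levels followed the other members least among subunit genes, both carry a TOP start. The next subunit genes in that order, Rpl21, Rpl15 and Rpl5, had runs of 0, 1 and 1 bases. A TOP start was thus not common to the subunit genes that followed the others least.

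Promoter sequences from 250 bases before to 50 bases after the start (RefSeq, GRCm38.p6) were held for 57 of the 77 subunit genes. The E-box CACGTG, which reads the same on both strands, was present in 6 of the 57 (10.5%), beside 8.09% of 27025 genes with a promoter and 12.5% of 7784 other expressed genes. The related E-box CATGTG was found in 12.3%, 15.9% and 10.1% of the same 3 groups. The 6 members with CACGTG are shown with up to 30 bases on each side and the E-box in capitals, read along the strand of the gene.
Rpl13a, chr7:45128910-45128975 (minus strand): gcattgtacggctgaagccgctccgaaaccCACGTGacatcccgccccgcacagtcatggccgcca
Rpl14, chr9:120571319-120571384 (plus strand): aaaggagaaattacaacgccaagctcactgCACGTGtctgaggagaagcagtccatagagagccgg
Rpl19, chr11:98026661-98026726 (plus strand): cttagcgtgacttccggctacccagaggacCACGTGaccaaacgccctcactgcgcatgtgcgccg
Rpl23, chr11:97782407-97782472 (minus strand): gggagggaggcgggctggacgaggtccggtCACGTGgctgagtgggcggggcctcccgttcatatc
Rpl34, chr3:130730518-130730583 (minus strand): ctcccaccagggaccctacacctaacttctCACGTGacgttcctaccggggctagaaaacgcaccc
Rps19, chr7:24884763-24884828 (plus strand): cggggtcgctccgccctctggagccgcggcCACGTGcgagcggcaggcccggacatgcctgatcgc
The first base of the E-box lay 3 bases before the annotated start in Rpl23, where the E-box thus spans the start, 19 bases before it in Rpl19, and 120 to 200 bases before it in the other 4. None of these 6 genes passed the test between genotypes given below.

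Other motifs, searched on both strands, were CTCGCGA, the core of a palindrome of housekeeping promoters, in 24.6% of subunit promoters (2.22% of all, 4.83% of other expressed genes), and CCGGAAG, a site of ETS factors, in 42.1% (9.93% and 22.9%). AAGATGG, a YY1 site, was in 15.8% (7.28% and 9.2%), the GC box GGGCGG in 61.4% (38.2% and 70.3%), TATAAA in 10.5% (15.7% and 8%) and CCAAT in 31.6% (41.1% and 43.3%). The palindrome core, the ETS site and the YY1 site were thus more frequent among the subunit promoters than in either comparison set, and matches describe letters, not binding.

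Ribosomal protein genes were among the most abundant transcripts of these microglia. Their level per length was taken as CPM scaled by TMM per kilobase of effective length and as the median over 10 libraries. It had a median of 299.7 over the 85 members. This placed the median member at percentile 97.5 of the genes tested, and 79 of 85 lay in the top 10%. Members had to reach a minimum mean count, which was not asked of the genes tested. These ranks may therefore follow in part from how members were chosen. Ranks among genes with the same minimum were not computed. Small subunit genes had a median level per length of 397.2 (interquartile range 283.4 to 715.4) and large subunit genes 275.5 (202.9 to 492.5). These ranges overlapped, and the 8 second copies had a median of 148.6. High levels per kilobase were those of Rps29 (1645) and Rps27 (1352), zinc-binding proteins of the small subunit, and Rpl13 (1286), a large subunit protein. Rps29 ranged from 165.2 to 261.8 (215.2 ± 40.5) CPM in WT and from 170.3 to 234.9 (212.6 ± 27.8) in DKO, and the groups overlapped.

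**Figure D1:**
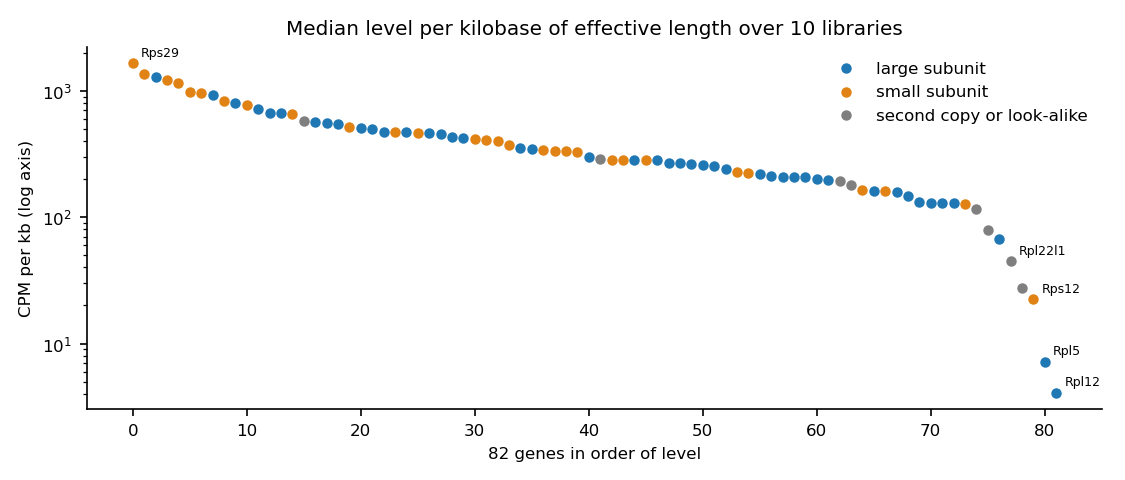
Median CPM per kilobase of effective length over 10 libraries (log axis) for 82 of the ribosomal protein genes in order of level, by subunit. Levels fall from 1645 (Rps29) to 4.09 (Rpl12), and the 2 lowest, Rpl5 and Rpl12, have a near-identical copy that holds most of their counts.

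The lowest levels per kilobase were those of Rpl12 (4.09), Rpl5 (7.19), Rps12 (22.5) and Rps19bp1 (27.4), far under the other subunit genes. Of these, the 3 subunit genes have near-identical copies elsewhere in the genome, to which the counting had given most of the counts. Transcript sequences were compared for 322 candidate genes, and 26 copies of 20 members, with at least 95% identity over at least 200 bases and a mean count of at least 10, were found. Gm15500, a processed copy identical to Rpl5 over 1018 bases, held a mean of 4785 counts against 345.1 for Rpl5. Gm10275, identical to Rpl12 over 634 bases, held 1920 against 94.6. Rps12-ps3 and Rps12l1, both identical to Rps12 over the aligned bases, together held 1763 against 138.9. Copies thus took 95.3% of the joint counts of Rpl12, 93.3% of Rpl5, 92.7% of Rps12 and 62.5% of Rpl10, and 31.5% to 45.8% for Rpl27a, Rps23, Rpl28, Rpl31 and Rpl15. In the other 11 genes they took 0.663% to 13.4%. Values of these 20 genes are therefore uncertain, since reads of gene and copy cannot be told apart where the sequences are identical.

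The split between gene and copy, or among the copies of a gene, was unstable for some of them. Rps12 was at 7.71, 2.59, 7.35, 3.41 and 6.43 CPM in WT 1 to 5 and at 1.88, 6.20, 9.18, 6.69 and 4.76 in DKO 1 to 5, with both genotypes covering the same wide range. Rpl15, a large subunit protein, was at 58.4 CPM in WT 4 and at 106.7 to 165.8 in the other 9 libraries. Its copy Rpl15-ps3 was low there too, at 153.9 counts in WT 4 against 987.7 to 1708 elsewhere. The copies of Rpl15 took 30.6% ± 5.54 of the joint counts in WT and 32.8% ± 2.61 in DKO. The low value of Rpl15 in WT 4 was thus not matched by a gain of Rpl15-ps3. In WT 4 and WT 5 another copy, Gm10020, held 437.5 and 328.8 counts, and at most 1.37 in the other 8 libraries. Rps13-ps2 held 423.8 counts in WT 5 and was listed at 0 in the other 9 libraries.

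The 85 members together took 1.53%, 1.06%, 1.12%, 1.28% and 1.53% of counts in WT 1 to 5, and 1.09%, 1.23%, 1.34%, 1.28% and 1.37% in DKO 1 to 5. The means were 1.30% ± 0.22 in WT and 1.26% ± 0.109 in DKO (SD, n = 5), and the DKO range lay inside the WT range. The difference of DKO minus WT was -0.0412 percentage points, and 0.109 when WT 1 and WT 5, the highest WT libraries in this share and in mitochondrial RNA, were left out (1.15% in WT and 1.26% in DKO). The part of mitochondrial RNA in this was not tested. Large subunit genes took 0.687% ± 0.0961 and 0.681% ± 0.0517, and small subunit genes 0.553% ± 0.117 and 0.524% ± 0.0546. In bulk RNA, fewer transcripts per cell and another mix of cells cannot be told apart.

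**Figure D2:**
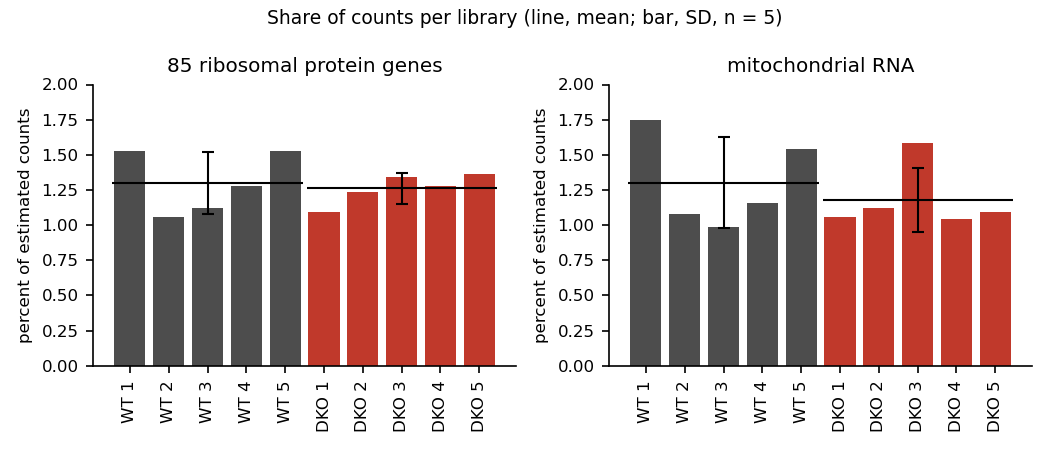
Percent of estimated counts per library taken by the 85 ribosomal protein genes (left) and by mitochondrial RNA (right), with the mean of each genotype as a line and the SD as a bar (n = 5). WT 1 and WT 5 are high in both panels, and the DKO libraries lie within the WT range for the ribosomal protein genes.

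Members rose and fell together from library to library within each genotype. The median deviation of a member from its own mean over the libraries was 0.16, -0.29, -0.20, 0.03 and 0.21 on the log2 scale in WT 1 to 5 and -0.21, 0.01, 0.01, 0.08 and 0.20 in DKO 1 to 5, while that of all genes tested stayed between -0.01 and 0.04. Of the 85 members, 48 had their lowest value in WT 2 and 22 in DKO 1, and 31 had their highest in WT 5, 25 in DKO 5 and 19 in WT 1. Over the 10 libraries, which share scaling and depth, the median correlation between 2 members was 0.73 (3570 pairs), and 66.1% of the variance of the members lay along 1 component, beside 48.1% for all genes tested. The spread was larger in WT than in DKO for 75 of 85 members (88.2%) and for 63.6% of all genes tested, with a median SD of 0.25 against 0.17 on the log2 scale.

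**Figure D3:**
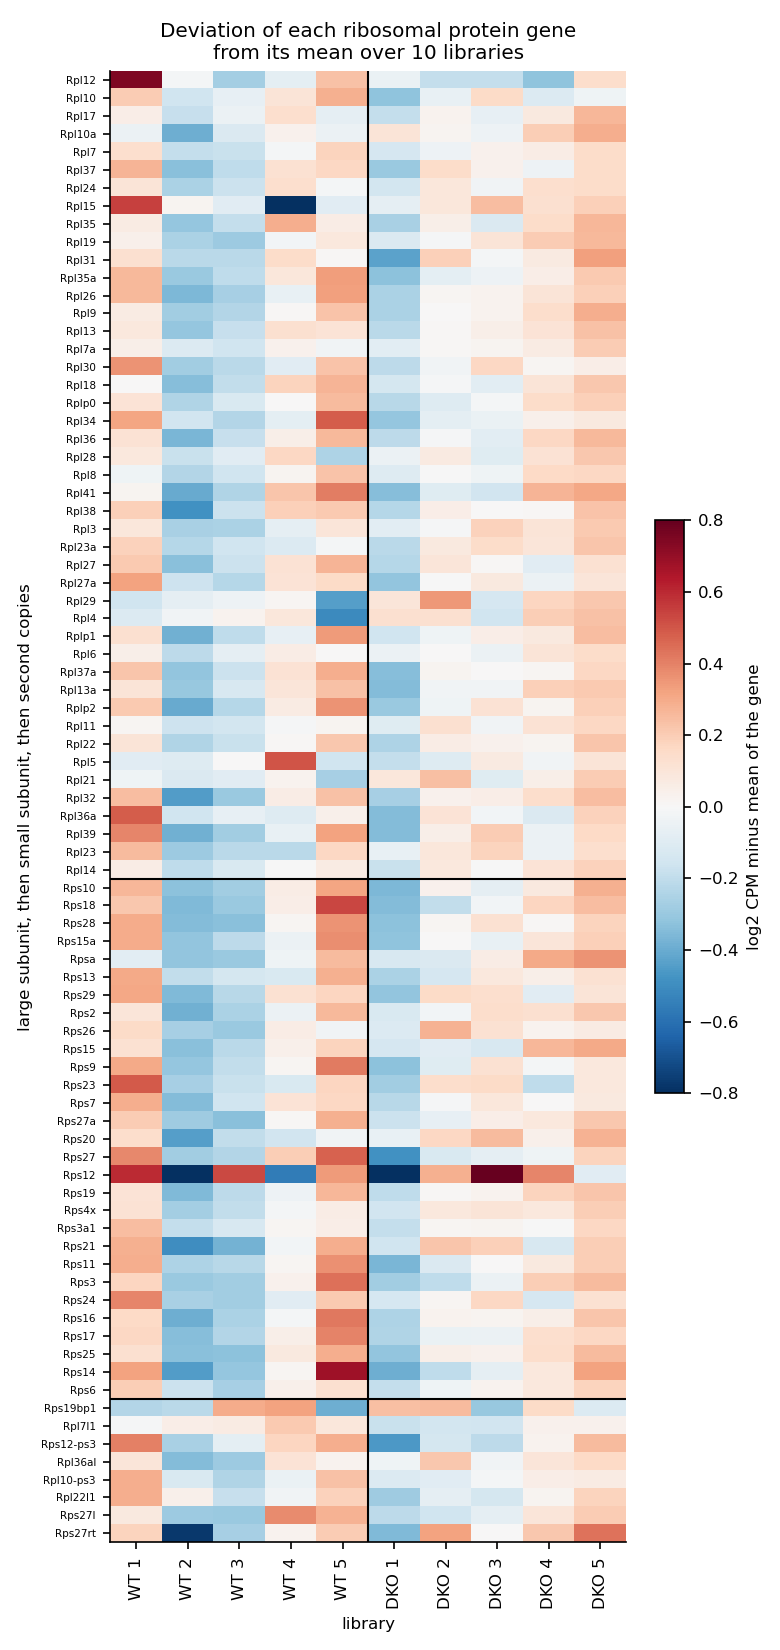
Deviation of log2 CPM from the gene's mean over 10 libraries for 82 of the members, in rows grouped as large subunit, small subunit and second copies, with WT libraries left of the black line and DKO libraries right of it, and colors stop at 0.8 either way. WT 2, WT 3 and DKO 1 are low and WT 5 and DKO 5 high across most rows, while Rpl4, Rpl29 and Rps19bp1 run against WT 5.

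Few members departed from this common pattern. The mean correlation with the other members was lowest for Rps19bp1 (-0.28), Rpl4 (-0.15), Rpl29 (-0.07), Rpl21 (0.10), Rpl7l1 (0.13), Rpl15 (0.15) and Rpl5 (0.16), and exceeded 0.3 in the remaining 78. Rpl4, a protein of the exit tunnel wall, was at 263.7, 279.2, 290.5, 303.2 and 200 CPM in WT 1 to 5 and at 311.5, 310.8, 254.7, 326.0 and 334.1 in DKO 1 to 5. Within its genotype it was lowest in WT 5 and DKO 3, which are 2 of the 3 libraries with the most mitochondrial RNA. All members together took 1.53% of counts in WT 5 and 1.34% in DKO 3. They took 1.37% in DKO 5, where Rpl4 was at its highest. Rpl29, a protein at the surface of the large subunit, was likewise lowest in WT 5 (53.95 CPM) and DKO 3 (66.6 CPM). The part of mitochondrial RNA in these values was not tested.

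The comparison of DKO with WT called none of the 85 members at an adjusted p of 0.05 (edgeR quasi-likelihood test, Benjamini-Hochberg over all genes tested), neither higher nor lower. Over all 13916 genes, 6.19% were called, 4.34% higher and 1.85% lower in DKO. None of the members had genotypes that did not overlap in CPM, beside 7.62% of all genes. Unadjusted p-values under 0.05 were found for 3 members, all higher in DKO, beside 13.3% of all genes in that direction, and for 0 members lower in DKO, beside 10% of all genes (1396). DESeq2 called 1 of 85 members, higher in DKO, beside 11.7% of all genes. Log2 fold changes were -0.29 for Rpl12 at the lower end and 0.28 for Rpl29 and 0.27 for Rps20 toward the upper end, with 49 above and 36 below 0, and their median was 0.02, beside -0.01 over all genes tested. The direction of this median depended on scaling, since with upper-quartile factors it was -0.085 and 18 members were above 0, while all genes had a median of -0.11. It was also below 0 with library size alone (-0.05), with a GC correction (-0.155) and in TPM (-0.325). The members' median minus that of all genes was 0.032 with TMM and 0.026 with upper-quartile factors. In TPM this difference was -0.069 with a pseudocount of 1, but 0.022 with 0.1. It was 0.02 in TPM recomputed without the RNA gene Gm23935. With the GC correction it was -0.016, and it was -0.041 without WT 2, -0.017 without WT 3 and -0.023 without DKO 5. The direction of this difference was thus not stable either.

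With TMM scaling and all 10 libraries, the intervals around these fold changes were narrow. They do not include the uncertainty from the choice of scaling or from counts shared with near-identical copies. The 95% confidence interval lay within 1.5-fold either way for 79 of 85 members and within 2-fold for all 85, beside 5638 and 9434 of 13916 genes tested. Among other protein-coding genes with the same minimum mean count, 5321 and 7696 of 9661 met these bounds. When WT 1 and WT 5 were left out, no member was called either, beside 3.12% of all genes. In that fit 79 of 85 were above 0, and the median rose to 0.16, beside -0.001 over all genes. An unadjusted p under 0.05 was found for 10 members, beside 16.6% of all genes. WT 1 and WT 5 were the WT libraries with the highest share of the members, so leaving them out raises the members' fold changes by construction. Within the libraries numbered 1 to 3 the median was 0.028, and within those numbered 4 and 5 it was 0.012, with no member called in either set.

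**Figure D4:**
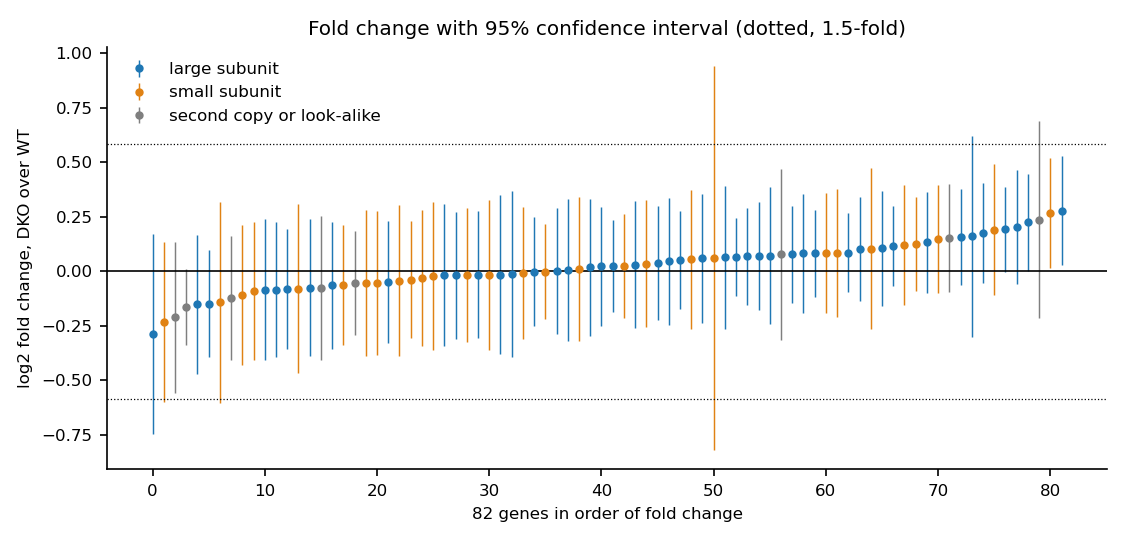
Log2 fold change of DKO over WT for 82 of the members in order of size, with 95% confidence intervals and dotted lines at 1.5-fold, colored by subunit. Intervals of 76 of these lie between the dotted lines, and the widest is that of Rps12 (-0.82 to 0.94).

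The small subunit (31 genes) had 15 members above 0 and a median of -0.0021. Rps20, a protein of the head of the small subunit (chr4:3831334-3835665, minus strand), was at 92.4, 61.7, 73.2, 75.4 and 82.1 CPM in WT 1 to 5 and at 80.4, 94.3, 100.2, 86.4 and 101.8 in DKO 1 to 5, and WT 1 and WT 5 lay within the DKO range (log2 fold change 0.27, SE 0.12, adjusted p = 0.195 by edgeR). Rps27 had the lowest fold change of the subunit, with 126.7 to 213 CPM in WT (169.6 ± 39.6) and 110.1 to 173.9 in DKO (144.3 ± 22.9), which overlapped (log2 fold change -0.23, 95% CI -0.60 to 0.13, adjusted p = 0.428 by edgeR). The 3 proteins at the mRNA entry, Rps2, Rps3 and Rps9, had a median of -0.04, with none called. Rps14 had the largest spread in WT among the abundant members, with 243.3 CPM in WT 2 and 530.7 in WT 5, against 252.5 to 414.7 in DKO.

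Within the large subunit (46 genes, 31 above 0, median 0.05), Rpl29 (chr9:106429454-106431568, plus strand) was at 65.7, 69.7, 71.3, 74.0 and 53.95 CPM in WT 1 to 5 and at 78.3, 93.1, 66.6, 82.5 and 85.1 in DKO 1 to 5. All DKO libraries but DKO 3 exceeded every WT library (log2 fold change 0.28, SE 0.11, adjusted p = 0.171 by edgeR). Rpl10a (0.22), Rpl21 (0.19) and Rpl4 (0.20), the next in order of p-value, had adjusted p-values of 0.215 to 0.335 and intervals that included 0. Rpl12, Rpl10 and Rpl34, with log2 fold changes of -0.29, -0.15 and -0.15, had adjusted p-values of 0.430, 0.45 and 0.56. Summing each member with its copies matched by sequence gave Rpl12 a log2 fold change of 0.081 in place of -0.29, and Rpl10 one of -0.091.

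The stalk, the flexible arm that recruits translation factors, is formed by Rplp0, Rplp1 and Rplp2 on a base with Rpl12. Rplp0 was at 460.7, 362.5, 392.1, 428.3 and 510.8 CPM in WT 1 to 5 (430.9 ± 58) and at 367.1, 398.3, 422.7, 473.5 and 488.8 in DKO 1 to 5 (430.1 ± 50.9), with nearly the same range (log2 fold change -0.003, 95% CI -0.25 to 0.25), Rplp1 at 180.6 ± 35.6 and 188.1 ± 19.6, and Rplp2 at 113.5 ± 23.9 and 112.0 ± 13.9. Each of these 3 was lowest in WT 2 and highest in WT 5 among the WT libraries. Rpl5 and Rpl11 bind the 5S ribosomal RNA and, when free, the p53 inhibitor MDM2. Rpl11 was at 81.8 ± 5.19 CPM in WT and 88.5 ± 6.80 in DKO (log2 fold change 0.11, 95% CI -0.07 to 0.30), and Rpl5 at 14.5 ± 3.02 and 13.7 ± 1.15 without its copy, while summed with Gm15500 it had a log2 fold change of 0.124 (adjusted p = 0.476 by edgeR). The 8 proteins at the rim of the exit tunnel had a median of 0.04, with 7 above 0 and none called. The 18 members known in human Diamond-Blackfan anemia, a failure of red cell formation, had a median of -0.01 with 8 above and 10 below 0, and none called.

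Second copies of ribosomal protein genes were compared with their parent within each library, as the percent of joint counts, which is free of library scaling. Rps27rt, a retrotransposed copy of Rps27, took 6.13%, 5.09%, 6.89%, 6.30% and 5.93% in WT 1 to 5 and 7.62%, 9.38%, 7.38%, 8.27% and 8.31% in DKO 1 to 5. The genotypes did not overlap, with means of 6.07% ± 0.655 and 8.19% ± 0.776 (SD, n = 5, two-sided exact permutation p = 0.00794, the smallest possible, and 0.0635 adjusted over the 8 comparisons of this kind), so the difference did not pass the threshold after adjustment. Rps27rt and Rps27 are identical over 341 aligned bases, and reads from these bases cannot be told apart. In CPM, Rps27rt was at 6.79 to 13.4 in WT (10.98 ± 2.77) and 9.10 to 15.8 in DKO (12.9 ± 2.62), a log2 fold change of 0.24 (95% CI -0.22 to 0.69, adjusted p = 0.524 by edgeR). Rps27rt lies at chr9:114982366-114982739 (minus strand) and Rps27 at chr3:90212522-90213651 (minus strand). Rpl22l1 took 25.2% ± 1.91 of the pair with Rpl22 in WT and 23.1% ± 0.885 in DKO (exact permutation p = 0.0397, adjusted 0.159). Rpl7l1, with the smallest p-value among members lower in DKO, was not called, with 145.3 to 169.1 CPM in WT (154.8 ± 8.81) and 129.1 to 149.8 in DKO (138.3 ± 10.5), a log2 fold change of -0.16 (SE 0.08) and an adjusted p of 0.243 by edgeR, and it took 32.8% ± 2.95 and 29.9% ± 0.96 of the pair with Rpl7 (exact permutation p = 0.119, adjusted 0.238). Rpl36al took 68.3% ± 3.39 and 71.8% ± 2.03 of the pair with Rpl36a (exact permutation p = 0.0952), and Rps27l, also a target of p53, took 21.3% ± 2.15 and 23.2% ± 1.57 of the pair with Rps27 (exact permutation p = 0.159). Rpl10-ps3 and Rps12-ps3 held 61.6% to 63.3% and 87.3% to 89.2% of their pairs on average, with exact permutation p-values of 0.246 and 0.532. Log2 fold changes of the second copies not yet given were -0.12 for Rpl22l1, 0.15 for Rpl36al, -0.08 for Rps27l, 0.08 for Rps19bp1, -0.06 for Rpl10-ps3 and -0.21 for Rps12-ps3, each with an interval that included 0. All 273 named pseudogenes outside the members together took 0.0205% ± 0.0055 of counts in WT and 0.0215% ± 0.00195 in DKO (exact permutation p = 0.746).

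**Figure D5:**
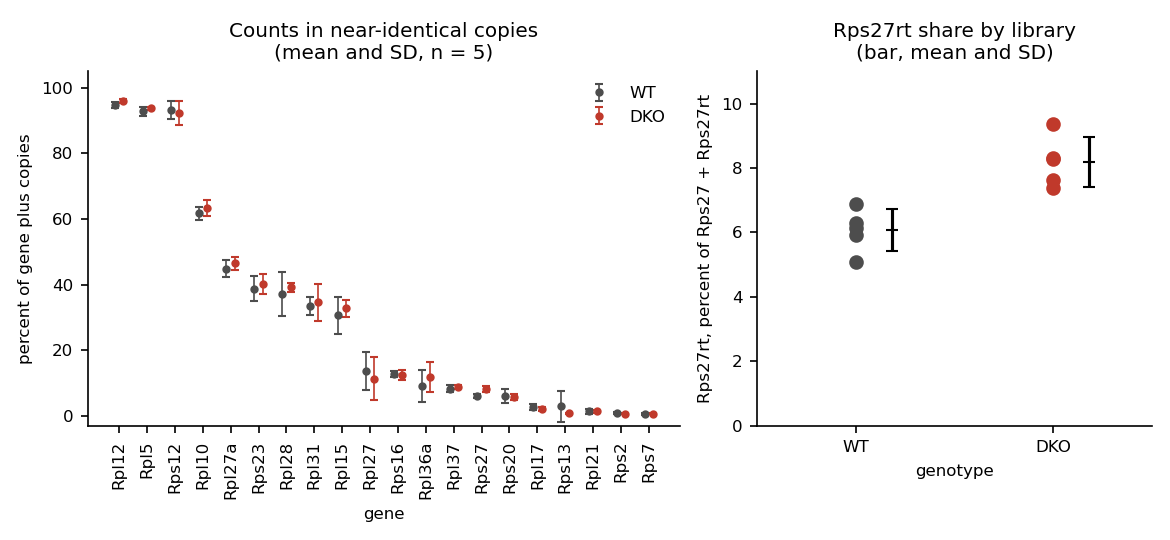
Left, percent of the joint counts of a member and its near-identical copies that the copies took, as mean and SD of 5 libraries per genotype, for 20 members. Right, percent of Rps27 plus Rps27rt counts in Rps27rt for each library with mean and SD, 5.09% to 6.89% in WT and 7.38% to 9.38% in DKO.

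The length of the counted transcripts, which the files give per library, did not overlap between genotypes for 1 member, Rps23, with 753.55 to 758.04 bases in WT and 736.11 to 751.35 in DKO, beside 1.04% of all genes tested. The ratio of the longest to the shortest value was 1.03 for Rps23. Its copy Rps23-ps1, identical over 425 bases, held 39.7% of their joint counts, so this length may depend on how reads were assigned.

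Of other genes that work with the ribosome, Fau and Rack1 had log2 fold changes of 0.06 and -0.007. Of 78 subunits of the mitochondrial ribosome none was called, 14 were above and 64 below 0, and their median was -0.10. Together they took 0.226% ± 0.0163 of counts in WT and 0.203% ± 0.00562 in DKO, with overlapping ranges, and Mrpl43 and Mrpl17, the 2 with the most counts, had log2 fold changes of -0.24 and -0.14. Of 10 elongation factors none was called, and their log2 fold changes ran from -0.22 to 1.605. Eef2 and Eef1a1 are named as the 2 with the most counts, and another of the 10 had a smaller p-value. Eef2, which moves the ribosome along the mRNA, was at 395.7 to 500.5 CPM in WT (469.2 ± 43) and 541.1 to 581.1 in DKO (570.2 ± 16.4) (log2 fold change 0.28, SE 0.08, adjusted p = 0.062 by edgeR). These ranges did not overlap, which held for 1 of the 10 factors, beside 7.62% of all genes tested. Eef1a1, which brings in the aminoacyl-tRNA, had a log2 fold change of 0.13.

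The assembly and control lists held these calls, to be read beside the 6.19% of all genes. Of 29 initiation factors, Eif3f was called higher in DKO, at 25.6 ± 15.2 CPM against 7.23 ± 1.80 (log2 fold change 1.82, adjusted p = 0.0229 by edgeR), with DKO values from 9.95 to 45.5 CPM. Of 33 biogenesis factors, Rrs1 (log2 fold change 3.37, adjusted p = 0.0226) and Bysl (0.34, adjusted p = 0.0393, both by edgeR) were called higher. Rrs1 was at 0.602 to 1.98 CPM in WT, and in DKO at 15.3, 23.4, 1.93, 1.43 and 11.2 CPM, so that DKO 3 and DKO 4 lay within the WT range. The calls of Eif3f and Rrs1 were lost when WT 1, WT 2, WT 4, WT 5, DKO 1 or DKO 2 was left out (adjusted p 0.0513 to 0.062 by edgeR), that of Eif3f also without DKO 5 (0.0517), and that of Bysl without any 1 library but WT 3 (0.0623 to 0.0929). Of 19 genes of the mTORC1 pathway, Eif4ebp1, an inhibitor of cap-dependent initiation, was at 59.4 ± 12 CPM in DKO and 28.9 ± 4.35 in WT (log2 fold change 1.04, adjusted p = 0.00225 by edgeR), and Deptor, an inhibitor of mTOR, at 11.8 ± 0.907 and 8.10 ± 0.836 (0.54, adjusted p = 0.0215 by edgeR). The call of Deptor was lost without WT 5 (0.0517), DKO 1 (0.0639) or DKO 2 (0.056). Of 11 p53 targets tested, Cdkn1a, an inhibitor of the cell cycle, was called higher (0.97, adjusted p = 0.00369 by edgeR). None was called among 15 genes of RNA polymerase I, where Twistnb and Rrn3 had log2 fold changes of 0.15 and -0.09, among 12 hosts of snoRNAs, where Gas5 and Snhg8 had -0.12 and -0.37, or among 8 genes of the Myc family, where Myc and Mxd1 had 0.12 and 0.04. Of 18 other mRNAs known to have a TOP start, 1, Eif3f, was called, and their median was 0.07.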

How the data were processed

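Libraries of sorted microglia were prepared with the TruSeq RNA v2 kit, which leaves the strand unmarked. According to the methods, FastQC 0.11.8 served to check read quality, cutadapt 2.6 to trim adapters and STAR 2.5.3a to align reads to mm10. For the program that quantified genes no name was given by the submitters' processing notes, the labels or the methods. The authors deposited, per gene and library, unnormalized estimated counts, and TPM, which have the same sum in each library, beside a length and an effective length. The deposited TPM were used only in alternatives.

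After rounding of the estimated counts, genes passing filterByExpr (minimum count 10) were scaled with TMM factors and compared, DKO over WT, in edgeR 4.0.16 under R 4.3.3, using the quasi-likelihood test without further terms, in place of the mixed model of the study, whose terms are not given. Benjamini-Hochberg adjustment covered every gene tested, at a threshold of 0.05. CPM use the same factors, spreads are SDs of 5 libraries, shares are of all estimated counts, and intervals are at 95%. Ratios within pairs were compared by two-sided exact permutation over the 252 splits of 10 libraries. Copies were matched with blastn 2.17.0 in annotated transcripts of GENCODE M21. Alternatives, given in the closing section, used other scaling, filters, models and subsets of libraries, DESeq2 1.42.0 and limma 3.58.1, and GC content was held for 99.96% of genes. The test was tried on simulated data. No 2 libraries agreed within counting noise. Sequences from 1 chromosome are not printed, and 2 members, Rps14 and Rpl17, have no coordinates in the annotation used.

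The members, lists, named genes and tests were chosen with earlier results of these data known. Named genes are members with an adjusted p under 0.05, filled to 6 in each direction by the smallest unadjusted p, the 4 highest and 4 lowest levels per length, the 3 nearest the minimum count on each side, all genes of the stalk, 5S and second-copy lists, and up to 3 called genes, or the 2 with most counts, of each other list. Rps14, Rpl15 and Rps23 were named after their values were seen. Some genes are not reported here, and counts and medians of lists include them.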

Additional observations from a re-analysis of the deposited data

Results flagged for a closer look

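A library far from the others of its genotype was looked for in 88 groups of 5 libraries, and chance gives such a value in about 1 group in 20. Rpl5 was the 1 found, at 19.82 CPM in WT 4, while the other 4 WT libraries lay between 12.53 and 13.99, a gap of 0.80 of the whole range of the genotype. The copy Gm15500, identical to Rpl5 over 1018 bases, held 93.3% of the joint counts of both genes.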

How the results depend on the processing

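No member was called in any fit that left out a single library. Such fits gave 402 (without DKO 1) to 1618 (without WT 3) called genes against 862 with all libraries, a median of the members of -0.045 to 0.08, and a share difference of -0.102 to 0.0155 percentage points. The call was lost in at least 1 of these fits for Eif3f (adjusted p 0.00901 to 0.062), Rrs1 (0.00814 to 0.06), Bysl (0.0408 to 0.0929) and Deptor (0.0203 to 0.0639), and in none of them for Eif4ebp1 and Cdkn1a, whose calls were lost with numbers 4 and 5 alone (adjusted p 0.0909 and 0.132) and, for Cdkn1a, with numbers 1 to 3 alone (0.0665). DESeq2 called 1629 genes (11.7%) and 1 member higher, a fit with a term for the libraries numbered 1 to 3 against 4 and 5 called 1431 genes (10.3%) and 1 member, and TPM recomputed without Gm23935 1 member. Leaving out WT 1 and WT 5 gave 449 called genes, leaving out DKO 3 as well 388, numbers 1 to 3 alone 298 and numbers 4 and 5 alone 57, the last 3 being chosen after seeing the data, and no member was called in these 4. On deposited log2 TPM with a pseudocount of 1 (0.1), limma called 4815 (4820) genes, 34.6% of all, and 20 (20) members lower, the members' median was -0.325 (-0.329) beside -0.256 (-0.351) for all genes, 1 of 85 members was above 0 against 49, and among the other named genes that changed sign were Bysl to -0.027 (-0.03), Deptor to -0.029 (-0.043) and Twistnb to -0.45 (-0.474). A single RNA gene, Gm23935, took 2.85% to 20.3% of TPM in WT and 23.2% to 26.6% in DKO, which by construction lowers the TPM of other genes. The share of calls that were higher was 70.1%, and 54.6% with upper-quartile factors, 53.7% with library size, 48.4% with a GC correction, 59.8% with the term for these sets of numbers and 13% (13.2%) in TPM, or 55% without Gm23935. Same-numbered libraries correlated at -0.23 to 0.20, 1 of 5 pairs above 0.1. For 1 WT and 1 DKO library, both numbered 4, the best match was its own number. The numbers were therefore not read as pairs in the main fit. This check of single pairs does not cover structure that the libraries numbered 1 to 3, or 4 and 5, may share across genotypes. The main fit had no term for these sets. With that term, 7 members had an unadjusted p under 0.05 by edgeR, beside 27.4% of all genes. Without it these were 3 members and 23.3% of all genes. With the replicate block 547 genes and 0 members were called, and the members' median was 0.034. Rps12, with a mean of 138.9 counts, had the widest interval of the members.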
